A study of Mus musculus with 132 samples.

Results

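The transcripts of 8 tight junction genes were followed in single cells from 8-cell and 32-cell mouse embryos, with and without a mimic of miR-381-3p. The genes were Cldn4, Cldn6, Cldn7, Ocln, Marveld2, F11r, Tjp1 and Cgn. They were chosen by name, and all 8 were found among the 32245 genes of the count table. Tight junctions are belts of contact that seal neighbouring epithelial cells below their apical surface. The trophectoderm (TE), the outer layer of the blastocyst, is the first epithelium of the mammalian embryo, and its tight junctions hold the fluid that is pumped into the blastocyst cavity. The inner cell mass (ICM), which gives rise to the embryo proper, lies inside that layer. Claudins (here Cldn4, Cldn6 and Cldn7) form the sealing strands. Ocln (occludin) and Marveld2 (tricellulin) are related membrane proteins of the strands, tricellulin being concentrated where the corners of cells meet. F11r encodes the adhesion molecule JAM-A. Tjp1 encodes ZO-1, a scaffold on the cytoplasmic side of the junction, and Cgn encodes cingulin, which links that scaffold to the cytoskeleton.

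Embryos came from matings of C57BL/6 x DBA F1 females (C57BL/6NCrl x DBA/2NHsd) with F1 males of the same strains and were cultured in KSOM medium from the 2-cell stage. The miR-381-3p mimic, a synthetic RNA, or a scrambled negative control mimic was present throughout, so that control embryos received such an RNA too. The mimic concentration was 10 µM for the embryos sequenced at the 8-cell stage and 5 µM for those at the 32-cell stage, although the labels do not give it for single cells, so dose and stage cannot be told apart under the mimic. Full-length transcriptomes were read with Smart-seq2 in 30 control and 24 mimic-treated cells of 8-cell embryos (embryonic day 2.5) and in 39 control and 39 mimic-treated cells of 32-cell embryos (embryonic day 3.5), with 3 to 5 embryos per group. The study asked what miR-381-3p, which it had found in the human ICM, does when it is raised before the ICM and the TE separate.

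Levels are given as counts per 1000000 counts (CPM), mitochondrial genes left out, either in single cells or pooled, that is, summed over the cells of a group. The interval after a pooled value is an exact Poisson 95% interval. It covers counting error only, since reads carried no molecular identifiers. The exact binomial intervals for shares of cells likewise cover only the counting of cells, which share embryos, and do not compare groups. The labels do not link cells to embryos, so each group was 1 sample, no test between groups was possible and no p-value is given. Differences are log2 changes of pooled CPM + 1, and a gene was counted as higher or lower when this change was at least 1, a 2-fold difference. For the 8 genes, the share of all genes past the same limit is given beside each count of a main comparison, but not beside counts under alternative settings. It is taken over genes with a mean of at least 5 CPM in the groups compared. All 8 tight junction genes met this minimum in every comparison. CPM is a share of a cell's RNA, and the amount of RNA per cell was not measured.

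The cells held 544866 to 3461022 counts each, with medians of 1212130 to 1339190 in the 4 groups. A count of 0 allows up to 3 counts, which came to 2.49 CPM in a cell of median depth. The 32-cell cells fell into 2 clusters formed without the tight junction genes and without any marker gene. All 9 ICM markers, such as Nanog and Fgf4, had their highest pooled level in the first cluster, called ICM-like, and all 9 TE markers, such as Krt8 and Gata3, in the second, called TE-like. ICM-like cells numbered 25 of 39 in the control (64.1%, exact binomial 95% interval 47.2 to 78.8) and 9 of 39 with the mimic (23.1%, 11.1 to 39.3). The remaining 14 control and 30 mimic cells were TE-like, so a comparison of all 32-cell cells also compares different mixtures of the classes. A score from the markers put 17 mimic cells in the ICM-like class in place of 9, with the control classes unchanged in size. Of 5 cumulus and granulosa markers, at most 2 were detected in any of the 4 groups, with a pooled sum of at most 0.66 CPM. Of 5 oviduct epithelium markers, 4 were detected in 8-cell control cells and 2 in each other group, with pooled sums of 2.06 to 16.6 CPM. Summed oocyte and polar body markers were 81.9 CPM in 8-cell control cells and 38.9 CPM in 8-cell mimic cells, and at most 2.59 CPM in 32-cell groups. Their part in the 8-cell results was not tested.

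Some cells stood apart from their labels. In the 32-cell groups, all 39 control cells had more counts of 4 Y-linked genes than of Xist, the RNA that silences an X chromosome in female cells, and all 39 mimic cells had more of Xist. Sex and treatment therefore cannot be told apart at the 32-cell stage. None of the 8 genes lies on a sex chromosome. At the 8-cell stage, Xist exceeded the Y-linked genes in 23 of 30 control and 14 of 24 mimic cells. In addition, 3 cells of the 8-cell mimic group held counts for only 3243 to 4881 genes, whereas every other cell had at least 5919. The numbers in the cell titles form runs within a group, 2 in the 32-cell control, here control runs A and B with 24 and 15 cells, and 3 in the 32-cell mimic, mimic runs C, D and E with 18, 12 and 9 cells, lettered in order of number within a group. The 8-cell control also had 2 runs, 28 cells numbered 1 to 30 and 2 cells numbered 87 to 88. The labels do not say what a run stands for.

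The mature sequence of the microRNA that the mimic replicates is shown because its seed, bases 2 to 8 (capitals), is the stretch through which microRNAs mostly pair with the 3' UTRs of their targets. It was taken from RefSeq and lies on the + strand of GRCm38.p6 at chr12:109726870-109726891.
mmu-miR-381-3p: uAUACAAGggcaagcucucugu
Sites that pair with this seed were searched in each gene's longest annotated 3' UTR, on the transcript strand, as an 8-base site (CTTGTATA) or either of the 7-base sites it contains (CTTGTAT and TTGTATA), each site being counted once under its longest form. The 8-base site was present in 648 of 20741 genes (3.12%), and any of the 3 forms in 4456 (21.5%). Among the 8 tight junction genes, only Ocln held the 8-base site, and Ocln, F11r and Tjp1 held a site of any form. The Ocln 3' UTR, 2307 bases long, had 3 of them. They are shown, with the site in capitals, since Ocln gave the largest difference between mimic and control at the 32-cell stage of the 8 genes. All lie on the - strand of chromosome 13 (mm10), and a matching sequence is a description, not evidence of binding.
Ocln 8-base site, chr13:100497916-100497945: gtgctttttatCTTGTATAgtttacatgct
Ocln 7-base site, chr13:100498549-100498577: caacattgattCTTGTATtaagaattaaa
Ocln 7-base site, chr13:100497353-100497381: aaataatgtttTTGTATAatactgggtca
F11r and Tjp1 each held a single 7-base site of the second form, at positions 963 and 551 of their 3' UTRs.

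The 8 genes lie on 7 chromosomes. Ocln (chr13:100496507-100552718, - strand, mm10) and Marveld2 (chr13:100595957-100616971, - strand) are neighbours, 43238 bases apart. The others are Cldn4 on chromosome 5, Cldn6 on 17, Cldn7 on 11, F11r on 1, Tjp1 on 7 and Cgn on 3. The Marveld2 locus contains a small nuclear RNA gene on the other strand, and Tjp1 (chr7:65296165-65527781) overlaps a processed pseudogene on the other strand and 2 unclassified transcripts on its own. Smart-seq2 does not mark the strand, so counts of such overlaps cannot be separated from those of Tjp1 and Marveld2.

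Levels were compared between the 8 genes per kilobase of annotated exon. Over all cells, Cldn4 led with 615 pooled CPM per kilobase and made up 57.4% of the sum over the 8 genes. F11r followed with 170 and Cldn7 with 124, then Cldn6 with 65.9 and Cgn with 52.3. Ocln (24.5), Tjp1 (12.6) and Marveld2 (7.37) were lowest. Cldn7 and F11r had a count in all cells but 1 and Cldn4 and Cgn in all but 2, whereas Tjp1 had none in 16 cells. Ocln was detected in 100 cells, Cldn6 in 88 and Marveld2 in 56. Cldn6 thus combined a higher pooled level than Ocln with fewer cells in which it was seen. Counts of all 8 genes were present in 30 cells (22.7% of all).

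**Figure D1:**
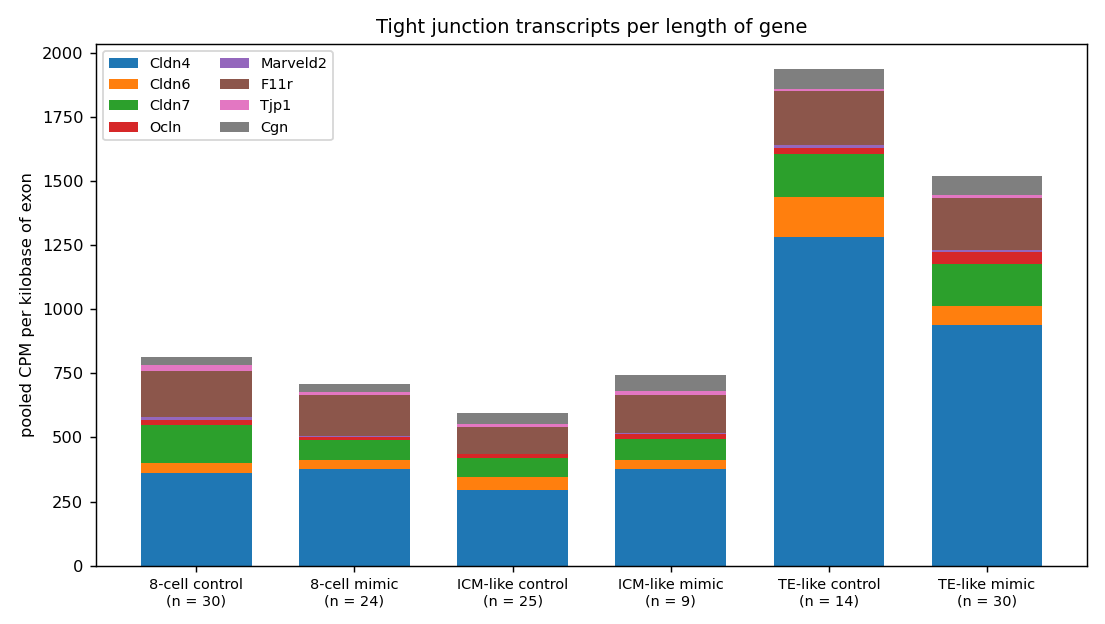
Stacked bars give the pooled CPM per kilobase of exon of each tight junction gene (colours) in 8-cell cells and in the ICM-like and TE-like cells of the 32-cell stage, by treatment, with the number of cells below. Cldn4 is the largest part of every bar, from 44.2% in 8-cell control cells to 66.1% in TE-like control cells.

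Cells of the 8-cell and 32-cell control groups were compared to ask which junction transcripts were present before the TE forms. At this step 1 of the 8 genes was past 2-fold higher and 1 lower, against 29.9% and 20.8% of all genes, and the median change was -0.24 against 0.20 over all genes. Cldn6 was the gene that was higher and Tjp1 the gene that was lower. Cldn6 was 72.1 CPM (69.4 to 74.9) in 8-cell control cells and 164.3 CPM (160.96 to 167.6) in 32-cell control cells, a log2 change of 1.18. Single 8-cell control cells held 0 to 589 CPM of Cldn6 with a median of 44.6, and 32-cell control cells 0 to 742 with a median of 79.5. The ranges overlapped almost fully, and only 1 of the 39 32-cell cells exceeded every 8-cell cell. Without control run A the change of Cldn6 was 0.27, so this call rests on that run. All 32-cell control cells held Y-linked counts, and against the 7 8-cell control cells of the same kind Cldn6 had a change of 2.03, against the 23 with more Xist 0.93.

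Tjp1, by contrast, was 164.9 CPM (160.8 to 169.1) in 8-cell control cells and 70.5 CPM (68.4 to 72.8) in 32-cell control cells, a log2 change of -1.21. Its cell values ran from 0 to 466 with a median of 138 at the 8-cell stage and from 0 to 348 with a median of 56.0 later. Without control run B the change was -0.95, still lower but within 2-fold, and against 8-cell control cells with more Xist it was -0.97.

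Cldn4 lay at the limit itself, with 654 CPM (646 to 662) in 8-cell control cells, 1302 CPM (1292 to 1311) in 32-cell control cells and a change of 0.99, or 1.07 without 8-cell cells 87 to 88 and 1.03 without control run A. Its single-cell values spanned 0 to 1384 CPM with a median of 595 at the 8-cell stage and 173.8 to 3415 with a median of 710 at the 32-cell stage, where 13 of 39 cells exceeded every 8-cell cell. Cgn had a change of 0.77, from 208 to 355 CPM. Cldn7 (-0.34), F11r (-0.25) and Ocln (-0.23) differed less, and their 32-cell values all lay within the range of 8-cell control cells or below it. Marveld2 had a change of -0.79, from 37.3 to 21.1 CPM, which was -1.87 without control run B and 0.04 without control run A. Transcripts of Cldn7, F11r, Ocln and Tjp1 were each detected in at least 24 of 30 control cells at the 8-cell stage.

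**Figure D2:**
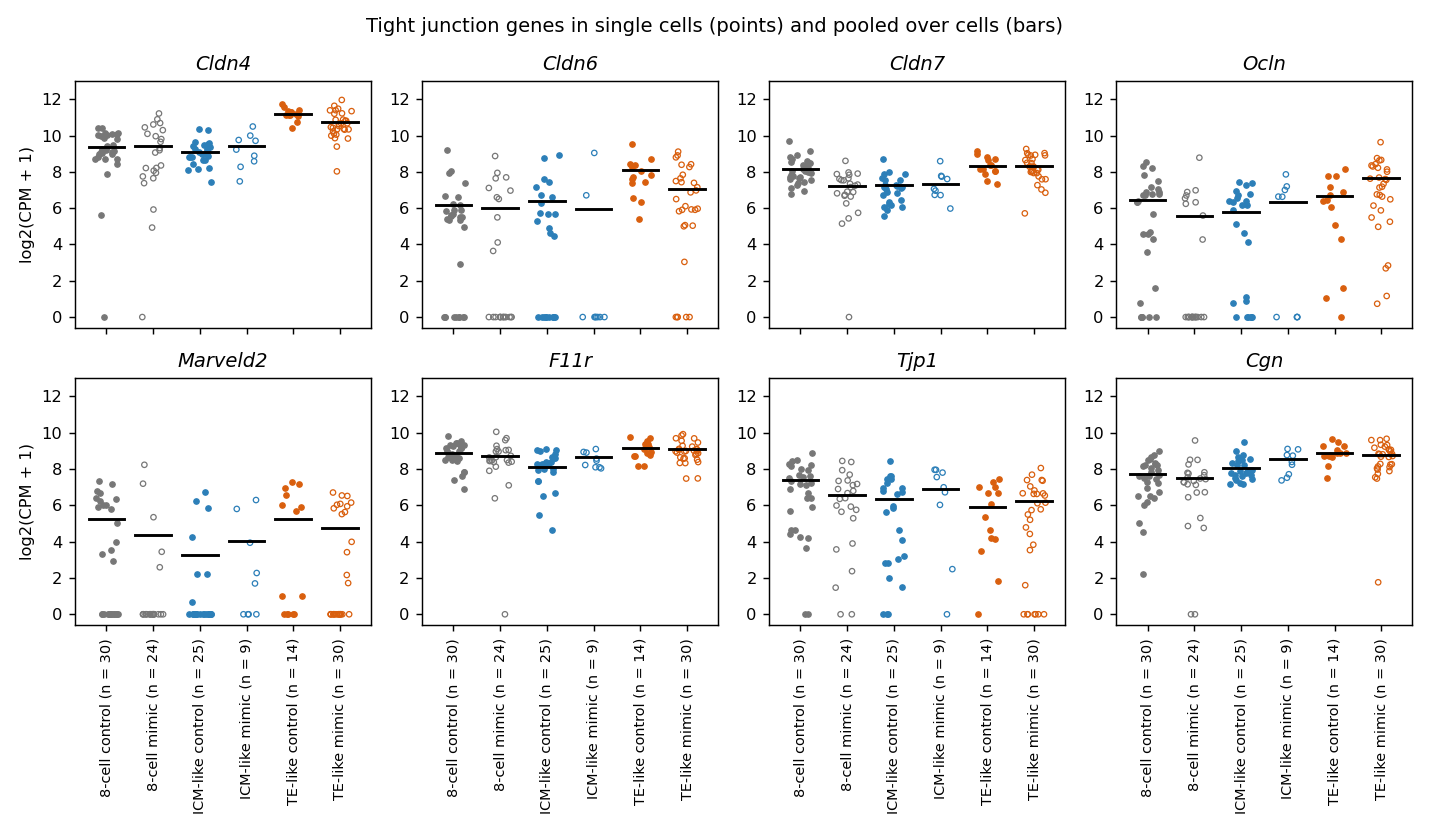
Each panel shows a tight junction gene, with log2(CPM + 1) on the vertical axis. Points are single cells (filled, control; open, mimic) of the 8-cell stage (grey), the ICM-like class (blue) and the TE-like class (orange), and black bars are pooled values. TE-like control cells sit above all ICM-like control cells for Cldn4, whereas the classes overlap for the other 7 genes, and Cldn6, Ocln and Marveld2 have many cells at 0.

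Within the 32-cell control, TE-like and ICM-like cells were compared to ask where the junction transcripts are found once the classes separate. Of the 8 genes, 5 were past 2-fold higher in TE-like cells (all genes 11.4%) and 0 were lower (all genes 14.5%). The median change was 1.05, against -0.08 over all genes, and 7 of 8 genes were above 0. The clusters were formed from other genes of the same cells, so that this is a description of the classes and not a test.

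Cldn4 had the largest difference, with 2325 CPM (2306 to 2344) in TE-like and 537 CPM (529 to 545) in ICM-like control cells, a log2 change of 2.11. The 14 TE-like cells ranged from 1369 to 3415 CPM with a median of 2307, and the 25 ICM-like cells from 173.8 to 1287 with a median of 508. Cldn4 was the only gene of the 8 for which the classes did not overlap. How many of all genes separate the classes in this way is not given. Cldn6 came to 273 against 83.3 CPM, a change of 1.70. Every TE-like control cell held Cldn6, at 40.8 to 742 CPM, while 10 of 25 ICM-like cells had no count of it. Both claudins kept a change of at least 1.63 when either run of cells was left out.

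Cldn7 was 322 CPM in TE-like and 150.8 CPM in ICM-like control cells (change 1.09), and all 14 TE-like cells exceeded the ICM-like median of 137 CPM. F11r was 564 against 280 CPM, a change of 1.01 that lay at the limit. It was 0.99 without control run A and 0.85 with cells thinned to 500000 counts, and stayed past 2-fold in 9 of 13 alternatives. Marveld2 was 37.7 against 8.72 CPM, a change of 1.99, but it was detected in 9 of 14 TE-like cells and 7 of 25 ICM-like cells only. Leaving out control run B brought Marveld2 to 0.49 and Cldn7 to 0.75, within 2-fold. In the 7 TE-like cells of that run Marveld2 was 72.7 CPM, and in the 7 TE-like cells of the other run 11.7 CPM.

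The remaining genes were less divided between the classes. Ocln was 100.9 CPM in TE-like and 54.1 CPM in ICM-like control cells (0.89), and Cgn 475 and 265 CPM (0.84). Both passed 2-fold without control run A, with changes of 1.31 and 1.26, and were 0.51 and 0.55 without control run B. Tjp1 was the exception in direction, at 58.5 CPM in TE-like and 79.5 CPM in ICM-like control cells (-0.44). Its direction turned with the run left out, from -1.05 without control run B to 1.01 without control run A, so no side was the higher for Tjp1 across the runs.

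With the mimic, 3 of the 8 genes were past 2-fold higher in TE-like than in ICM-like cells (all genes 13.5%) and 0 were lower (all genes 11.7%). The 3 were Cldn4 (1.32), Cldn6 (1.10) and Ocln (1.34), and Cldn7 came close (0.98). Cldn4 was 1702 CPM (1690 to 1715) in 30 TE-like and 682 CPM (666 to 697) in 9 ICM-like mimic cells. Here the classes overlapped, since TE-like mimic cells reached down to 259 CPM and ICM-like mimic cells up to 1442 CPM, and 16 of 30 TE-like cells lay above every ICM-like cell. F11r (0.45) and Cgn (0.22) were closer between the classes than in the control (1.01 and 0.84). That difference was not tested. For Ocln the change was 0.70 without mimic run E and 2.44 without mimic run D, and Cldn7 passed 2-fold (1.14) without mimic run D.

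**Figure D3:**
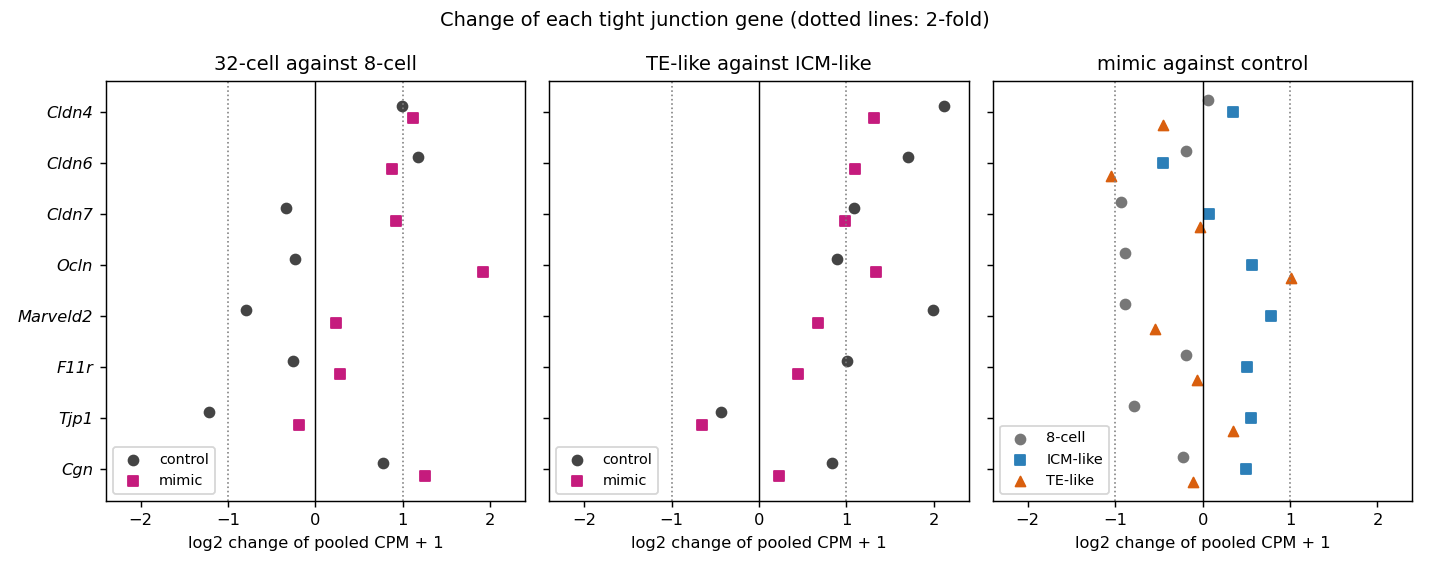
The log2 change of pooled CPM + 1 of each tight junction gene is shown between stages, between classes and between treatments, with colours and symbols for the arm or class. Dotted lines mark 2-fold. Between the classes 7 of 8 genes lie right of 0 in both arms, and between treatments Ocln lies near -0.88 at the 8-cell stage and near 1.01 in TE-like cells.

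The mimic was compared with the control first at the 8-cell stage. None of the 8 genes was past 2-fold in either direction, against 8.92% of all genes higher and 8.66% lower, but 7 of 8 were below 0 and the median change was -0.50 against 0.02 over all genes. Of the 7, Cldn6 kept its sign in only 8 of 13 alternatives. Cldn7 had the largest difference. It was 284 CPM (279 to 290) in control and 148.5 CPM (144.3 to 152.9) in mimic cells, a change of -0.93. Control cells ranged from 108.5 to 817 CPM with a median of 262, and mimic cells from 0 to 388 with a median of 145.7. Only 1 of 24 mimic cells exceeded the control median, while 27 of 30 control cells exceeded the mimic median.

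Ocln was 87.1 CPM (84.1 to 90.1) in 8-cell control and 46.7 CPM (44.3 to 49.2) in 8-cell mimic cells, a change of -0.88. A count of Ocln was present in 24 of 30 control cells (80%, exact binomial 95% interval 61.4 to 92.3) and in 9 of 24 mimic cells (37.5%, 18.8 to 59.4). Thinning every cell to 500000 counts left both numbers of cells the same. Marveld2 showed a similar shift, from 37.3 to 19.8 CPM (-0.88) and from 16 of 30 cells to 5 of 24. Tjp1 was 164.9 CPM without and 95.3 CPM with the mimic (-0.78). Cldn6 was present in 21 of 30 control and 11 of 24 mimic cells, with a pooled change of only -0.19. Without 8-cell control cells 87 to 88, Cldn6 turned to 0.07, Ocln was -0.76 and Marveld2 -0.73. Cgn had a change of -0.23, F11r of -0.19 and Cldn4 of 0.07.

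Fewer of the genes were detected per cell with the mimic. All 8 were present together in 9 of 30 control cells (30%) and in 0 of 24 mimic cells, which allows a share of up to 12.5%. The median number of genes detected was 7 in control and 6 in mimic cells. An alternative added after the data were seen left out the 3 cells that held few genes. All 8 genes were still together in 0 of 21 cells and the median stayed at 6. In this setting 3 genes passed 2-fold lower, namely Ocln (-1.19), Marveld2 (-1.18) and Cldn7 (-1.0009, at the limit). The share of all genes past 2-fold in this setting is not given. Tjp1 was -0.62, and Cldn6 was 0.008 and so no longer below 0. The values also differed between cells with more Y-linked counts and cells with more Xist, whose embryos the labels do not give, so embryo and sex cannot be told apart. In cells with Y-linked counts above Xist, 7 control and 8 mimic cells, Cldn4 was 503 and 1232 CPM, a change of 1.29. In cells with more Xist it was 717 and 530 CPM, a change of -0.43. Ocln had a change of -0.15 in the former cells and -1.02 in the latter. Cldn7 (-1.20) and Marveld2 (-4.54, at 0.61 CPM in mimic cells) were past 2-fold lower in the former. There 4 of the 8 genes were below 0 and the median change was -0.03, against 7 of 8 and -0.50 over all 8-cell cells. In the cells with more Xist, all 8 genes were below 0, from -0.14 (Cldn6) to -1.02 (Ocln).

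At the 32-cell stage, all cells together, 1 of 8 genes was past 2-fold higher with the mimic (all genes 9.37%) and 0 were lower (all genes 6.29%). This gene was Ocln. It was 74.1 CPM (71.9 to 76.4) in control and 178 CPM (175 to 182) in mimic cells, a change of 1.26. Control cells ranged from 0 to 287 CPM with a median of 70.1 and mimic cells from 0 to 792 with a median of 127, and 8 of 39 mimic cells exceeded every control cell. The change was 0.99 without mimic run E. Of the other genes, Cldn6 (-0.49) passed 2-fold lower without mimic run C (-1.37) but was 0.41 without control run A, and Marveld2 (0.14) passed 2-fold higher without control run B (1.22) but was -0.69 without control run A. All control cells held Y-linked counts and all mimic cells Xist, which applies to every treatment comparison at this stage. Since 30 of 39 mimic and 14 of 39 control cells were TE-like, the classes were also compared apart.

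Among TE-like cells, 1 gene was past 2-fold higher with the mimic (all genes 14.7%), 1 was lower (all genes 8.94%), and the median change was -0.09. Ocln was again the higher gene, at 100.9 CPM (97.0 to 104.99) in 14 control and 205 CPM (200 to 209) in 30 mimic cells (1.01). Its level was 79.5 and 130 CPM in the control runs and 216, 111.1 and 291 CPM in the mimic runs, so that mimic run D lay between the control runs. Leaving out control run A gave 0.65, leaving out mimic run C gave 0.97, and leaving out mimic run E gave 0.69, all within 2-fold. Cldn6 was the lower gene, at 273 CPM (266 to 279) in control and 131 CPM (128 to 135) in mimic cells (-1.05). Its control runs held 360 and 155.1 CPM and its mimic runs 258, 50.7 and 85.7 CPM, and its change was between -0.24 and -0.82 when control run A or either of the last 2 mimic runs was left out.

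Cldn4 in TE-like cells was more even across the runs. Both control runs were close, at 2326 and 2323 CPM, and all 3 mimic runs lay below them, at 1950, 1541 and 1617 CPM. How many of all genes have their runs apart in this way is not given, and the runs are not known replicates. Pooled, the change was -0.45, from 2325 to 1702 CPM, and 13 of 14 control cells exceeded the mimic median of 1528 CPM. Cldn7 (-0.03), F11r (-0.06) and Cgn (-0.11) were nearly the same in TE-like cells of both arms. Marveld2 (-0.54) was -1.48 without control run A and 1.07 without control run B. Summed TE markers were lower with the mimic as well, with a pooled sum of 10891 CPM in TE-like control and 6895 CPM in TE-like mimic cells. They ranged from 8931 to 12887 CPM in single control cells (median 10774) and from 858 to 14267 CPM in single mimic cells (median 6089), and all 9 were detected in both. Their part in these differences was not tested. When the classes were set by the marker score, the TE-like change of Cldn4 was -0.30.

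**Figure D4:**
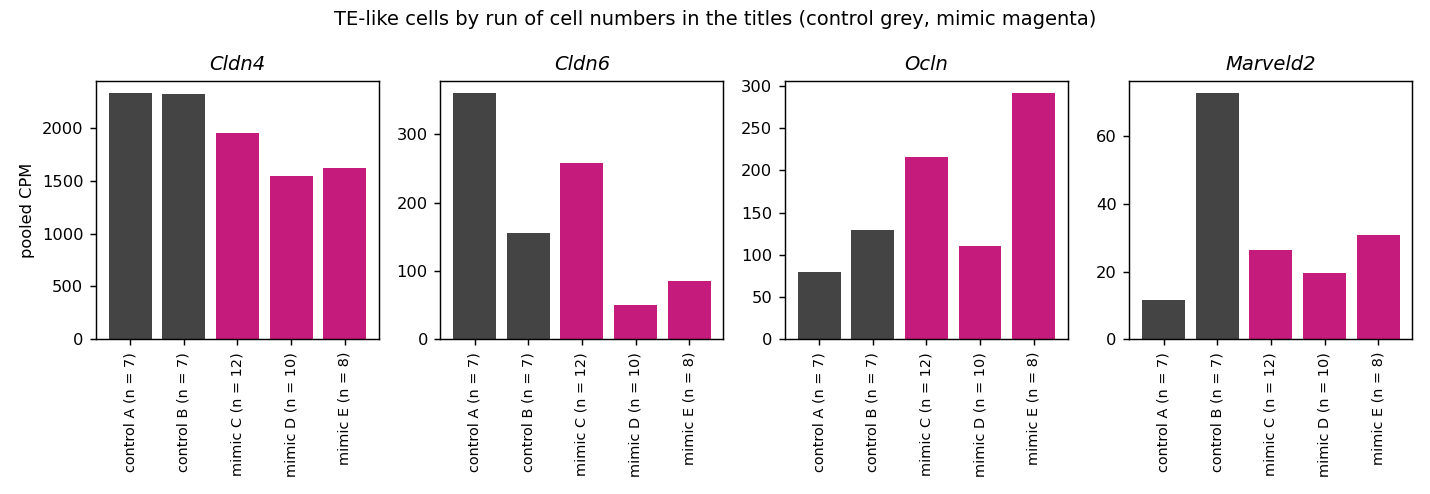
Bars give the pooled CPM of 4 tight junction genes in TE-like cells, split by the runs of cell numbers in the titles (grey, control; magenta, mimic), with the number of cells in each run. Cldn4 is lower in every mimic run than in either control run, whereas Cldn6, Ocln and Marveld2 have control runs on both sides of at least 1 mimic run.

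Among ICM-like cells, 0 genes were past 2-fold in either direction with the mimic, against 13.9% of all genes higher and 13.1% lower, and 7 of 8 were above 0 with a median change of 0.50. This comparison had 9 mimic cells, 6 of them from mimic run C, which was not left out because 3 cells would remain. Marveld2 (0.78), Ocln (0.57), Tjp1 (0.56), F11r (0.50) and Cgn (0.50) had the largest values. Cgn was 265 CPM (260 to 271) in control and 376 CPM (364 to 387) in mimic cells, and F11r 280 and 398 CPM. For Tjp1 the change was 1.80 without control run A, whose ICM-like cells held 108.4 CPM, while those of the other control run held 33.1 CPM. It was 0.12 without control run B and -0.08 with the classes set by the marker score. Marveld2 passed 2-fold without mimic run D (1.15) or E (1.07). The change of Ocln was -0.23 without mimic run D. Cldn6 was below 0 (-0.45), or 0.95 without control run A, and was present in 2 of 9 mimic and 15 of 25 control cells.

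From the 8-cell to the 32-cell stage under the mimic, 3 of the 8 genes were past 2-fold higher (all genes 30.2%), 0 were lower (all genes 18.8%), and the median change was 0.90 against 0.24 over all genes. The 3 were Ocln (1.91), Cgn (1.25) and Cldn4 (1.12). Against the 8 mimic cells of the 8-cell stage with Y-linked counts above Xist, Cldn4 (0.27) and Cgn (0.86) were within 2-fold, and Marveld2 (3.92), Cldn6 (1.19) and Cldn7 (1.003) passed it. Against the 14 with more Xist, as in all 32-cell mimic cells, Ocln (1.98), Cldn4 (1.49) and Cgn (1.42) were the genes past 2-fold. In the control Ocln, Cgn and Cldn4 had -0.23, 0.77 and 0.99. Cldn6 (0.87) passed 2-fold without mimic run D (1.20) or E (1.08) and was -0.00098 without run C, and Cldn7 (0.92) passed it without run D (1.01). The embryos of these stages also received different concentrations of the mimic. These comparisons share their groups with those of mimic and control, so they restate the levels above. Ocln moved from 46.7 to 178 CPM under the mimic and from 87.1 to 74.1 CPM in the control. The difference between the arms was not tested.

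The other genes of the junction were described from lists chosen by role. Of 20 further claudins, 8 had no count in any cell and 2 at most reached 5 CPM in any comparison. The claudins with the highest pooled level over all cells were Cldn12 (28 CPM), Cldn3 (2.95), Cldn9 (2.70) and Cldn5 (0.58). Cldn4, Cldn6 and Cldn7 together made up 97.6% of the summed CPM of the 23 claudins over all cells, and 88.4% in ICM-like mimic cells, where Cldn12 made up 11.2%. Cldn12 stood apart with the mimic. In TE-like cells it was 5.75 CPM in the control and 41.0 CPM in the mimic (2.64), in ICM-like cells 11.8 and 114.3 CPM (3.17), and at the 8-cell stage 30.8 and 10.4 CPM (-1.47). It was detected in 9 of 39 control and 23 of 39 mimic cells of the 32-cell stage. Ocln had the same directions in these comparisons, with smaller changes.

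Of 10 other membrane proteins of the junction, 5 were past 2-fold higher and 1 lower from the 8-cell to the 32-cell control. Over the 6 that met the minimum of 5 CPM there were 4 and 1, against 29.9% and 20.8% of all genes. Lsr, which encodes the lipolysis-stimulated receptor that recruits tricellulin to cell corners, went from 9.20 to 210 CPM (4.37) and from 5 of 30 to 39 of 39 cells. Its relative Ildr1 went from 3.08 to 34.1 CPM (3.11). Lsr did not separate the classes in the control, with 217 CPM in TE-like and 205 CPM in ICM-like cells (0.08). The adhesion molecule genes Jam2 and Cxadr separated them in opposite ways. Jam2 was 8.46 CPM in TE-like and 123 CPM in ICM-like control cells (-3.71), whereas its family member F11r was higher in TE-like cells. Cxadr was 305 and 132.4 CPM (1.20). With the mimic, TE-like cells held 37.0 CPM of Jam2 (2.00), 126 CPM of Cxadr (-1.27) and 383 CPM of Lsr (0.82).

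The plaque proteins bind the strands from inside the cell. Of 16 listed genes, 11 were past 2-fold higher and 2 lower in the 32-cell control, with a median change of 1.53 against 0.20 over all genes. Over the 13 that met the minimum of 5 CPM there were 10 and 1, against 29.9% and 20.8% of all genes. Tjp3, which encodes the scaffold ZO-3 and was named after its values were seen, went from 2.504 to 59.8 CPM (4.12). Tjp1 had the opposite direction. Per kilobase of exon, the order of Tjp1 and Tjp3 reversed between 8-cell and TE-like cells of the control. In 8-cell control cells Tjp1 was at 21.1 pooled CPM per kilobase and Tjp3 at 0.67, and in TE-like control cells Tjp1 was at 7.49 and Tjp3 at 28.2.

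Between the classes of the control, Tjp3 was 104.8 CPM in TE-like and 26.2 CPM in ICM-like cells (1.96). Of the 16 plaque genes 6 were past 2-fold higher and 1 lower in TE-like control cells, or 5 and 1 of the 12 that met the minimum, against 11.4% and 14.5% of all genes. With the mimic, 1 plaque gene was past 2-fold higher and 4 were lower in TE-like cells, or 0 and 3 of the 11 that met the minimum, against 14.7% and 8.94% of all genes. In ICM-like cells 1 was higher and 6 were lower, or 1 and 5 of 12, against 13.9% and 13.1% of all genes. Amotl2, an angiomotin family gene whose proteins hold back YAP at junctions, was lower in both, from 136 to 56.3 CPM in TE-like cells (-1.26) and from 30.7 to 6.77 CPM in ICM-like cells (-2.03). Pard3 (0.10 and 0.44) and Ybx3 (0.26 and 0.37) did not pass 2-fold in these classes.

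**Figure D5:**
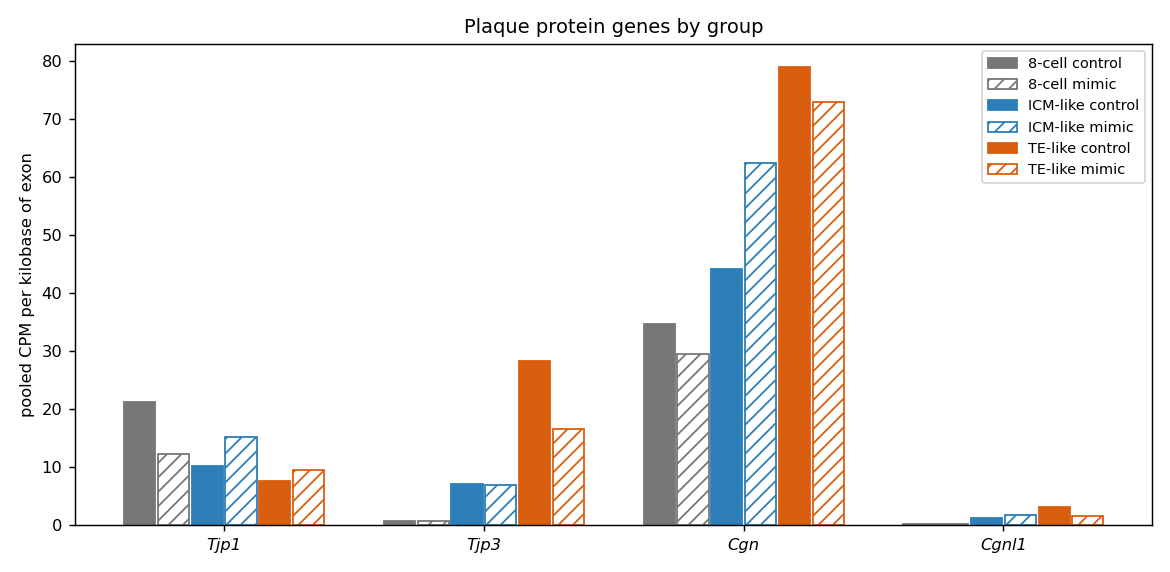
Bars give the pooled CPM per kilobase of exon of the scaffold genes Tjp1 and Tjp3, of cingulin (Cgn) and of the paracingulin gene Cgnl1 by group (filled, control; hatched, mimic). Tjp1 stands above Tjp3 in 8-cell control cells, at 21.1 against 0.67, and below it in TE-like control cells, at 7.49 against 28.2.

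Among 6 transcription factor genes of epithelia, Tfap2c and Grhl2 were the most abundant and within 2-fold in all 8 comparisons, with Tfap2c between 156.3 and 359 CPM and Grhl2 between 102.4 and 162.3 CPM over the 8 groups and classes. Ovol1 and Ovol2 were past 2-fold lower at the 32-cell stage in the control (-1.56 and -3.16). Of the 5 factors that met the minimum of 5 CPM there, 0 were higher and 2 lower, against 29.9% and 20.8% of all genes. Both genes were past 2-fold higher in TE-like than in ICM-like control cells (3.17 and 3.13). There 1 of the 3 factors that met the minimum was higher and 0 were lower, against 11.4% and 14.5% of all genes. Ovol2, at 3.85 CPM over all 32-cell control cells, did not meet it. The factors with the highest levels thus did not divide the classes as Cldn4 did.

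Finally, it was asked whether the 8 genes varied together from cell to cell. Spearman correlations of log2(CPM + 1) are descriptions, since cells share embryos and both classes are present. Over the 39 cells of the 32-cell control, 25 of 28 pairs were positive, with a median of 0.28 and the highest value between Cldn4 and F11r (0.67). Over the 39 mimic cells, 26 were positive, with a median of 0.24 and the highest between Cldn4 and Cldn6 (0.75). Within the classes the medians were 0.09 in ICM-like and 0.08 in TE-like control cells, and 0.05 in ICM-like and 0.32 in TE-like mimic cells. At the 8-cell stage the medians were 0.07 in control and -0.02 in mimic cells. The lowest value in the 32-cell control was -0.11, between Cldn6 and Tjp1.

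The genes whose levels followed the mean of the 8 genes most closely over the 39 cells of the 32-cell control were Cnn3 (rho 0.78), Crip2 (0.76), Clic4 (0.75), Havcr1 (0.74), Ap2a2 (0.73), Krt8 (0.73), Dab2 (0.72) and Lrpap1 (0.71), out of 6648 genes with at least 20 CPM. All 8 had a higher pooled CPM in TE-like than in ICM-like control cells, for example Krt8, a keratin gene of simple epithelia, at 2126 and 594 CPM. This follows largely from how they were picked, since most of the tight junction genes were themselves higher in TE-like cells. Krt8 and Dab2 are also among the TE markers that named the classes. Over the 39 mimic cells the correlations of these 8 genes were 0.41 to 0.80, and Krt8 ranked highest of all 6648 genes there. Within ICM-like control cells alone they were 0.32 to 0.57. Correlations of the 8 genes with total counts, the depth of a cell, were between -0.20 and 0.37 over all 32-cell control or mimic cells. Within the classes they reached further, with Tjp1 at -0.83 in the 9 ICM-like mimic cells, and Tjp1 at -0.46, Marveld2 at -0.41 and Cldn4 at -0.40 in the 14 TE-like control cells.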

How the data were processed

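Single cells were sequenced with Smart-seq2, which reads polyadenylated RNA without molecular identifiers or strand. The authors used STAR 2.5.1b for alignment to mm10 and deposited the expected counts of RSEM 1.3.0, without normalisation. All deposited values were whole numbers, so they were used as they stand. The table held 132 cells, no pair of them identical, and all passed the study's filter of at least 3000 genes and under 10% mitochondrial counts.

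Counts of 13 mitochondrial genes were left out. Counts were then summed over the cells of a group and scaled to CPM, and changes were differences of log2(CPM + 1). Intervals for shares of cells are Clopper-Pearson. Cells were clustered with Seurat 5.3.0 in R 4.3.3 on 2000 variable genes among odd-ranked genes, without any listed gene, with 25 principal components and a resolution of 0.8, and no doublet caller was run. Other steps were run in Python 3.11.15, with TMM factors from edgeR 4.0.16. The summing, changes and calls were tested on simulated data. Gene positions, exon lengths and 3' UTRs came from GENCODE M21 on the same build, a release that can differ from the one used for counting. Cldn25 was not analysed here.

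Each group was treated as 1 sample, with no test. All 8 genes were named, and of each other list of junction genes and regulators the 4 genes with the highest pooled CPM over all cells, with Tjp3 and Cgnl1 added after their values were seen. The plaque protein list counts 1 gene that is not reported here by itself. Genes of like pattern were the 8 with the highest Spearman correlation with the mean of the 8 tight junction genes. The genes, lists and comparisons were chosen with earlier results of these data known. Alternatives were pseudocounts of 0.1 and 5, other library sizes and scalings, means over cells, thinning to 500000 counts, a 1.5-fold limit, other classes, background minimums of 0 and 20 CPM, 8-cell cells split by Xist and Y-linked counts, and leaving out single cells or runs of cells.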

Additional observations from a re-analysis of the deposited data

Results flagged for a closer look

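Ocln and Marveld2 each changed direction between groups of cells when the mimic was compared with the control, which is what drew attention to them. The log2 change of Ocln with the mimic was -0.88 at the 8-cell stage and 1.26 at the 32-cell stage, or 1.01 in TE-like cells alone. In single cells, 5 of 24 mimic cells exceeded the control median at the 8-cell stage and 26 of 39 at the 32-cell stage. Marveld2, the neighbouring gene, had a change of -0.88 at the 8-cell stage and 0.78 in ICM-like cells of the 32-cell stage, where it was detected in 5 of 9 mimic and 7 of 25 control cells. In TE-like cells it was -0.54, as at the 8-cell stage below 0, and over all 32-cell cells 0.14. These differences between stages were not tested, and the embryos received 10 µM of the mimic for the 8-cell and 5 µM for the 32-cell stage. The sexes of the cells differ between the arms at the 32-cell stage, so their part cannot be told apart from that of the mimic.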

How the results depend on the processing

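No paired analysis was possible because the labels link no cells to embryos and no comparison has a test. Of 64 changes of single genes, 16 were past 2-fold. All 16 kept their sign under every alternative, but only 4 kept the call under every alternative. Counts of genes past 2-fold are given here as higher or lower in a comparison. The share of all genes under each alternative, including each run left out, is not given. These counts therefore describe the 8 genes only. From the 8-cell to the 32-cell control (1 higher, 1 lower), 2 were higher with a library size of all genes, without the highest cell of each group, or against 8-cell cells with Y-linked counts, 3 with a 1.5-fold limit, and 0 with means of single cells or against 8-cell cells with Xist. The lower count was 2 with mean log values or 1.5-fold, and 0 with means of single cells or Xist cells. Under the mimic (3 higher) it was 5 without the highest cells or at 1.5-fold and 6 with mean log values. Mimic against control at the 8-cell stage (0 and 0), the lower count was 4 with mean log values or at 1.5-fold, 3 without the highest cells or without the 3 cells with few genes, 2 with Y-linked and 1 with Xist cells, and the higher count was 1 with Y-linked cells. TE-like against ICM-like mimic cells (3 higher, 0 lower), 5 were higher without the highest cells, at 1.5-fold or by marker score, and 1 lower with mean log values or at 1.5-fold. Mimic against control in TE-like cells (1 and 1), the higher count was 0 with a pseudocount of 5, TMM, median of ratios, means of single cells, thinning or without the highest cells, and the lower count 0 with means of single cells, thinning, without the highest cells, by marker score or by clusters of all genes. In ICM-like cells (0 and 0), 2 were higher with mean log values and 1 at 1.5-fold, and 1 was lower with mean log values or without the highest cells.

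Leaving out each run of cells gave 1 to 2 higher for stages in the control and 3 to 5 under the mimic, 0 to 2 higher and 0 to 1 lower for the mimic at the 32-cell stage, 3 to 7 higher and 0 to 1 lower between control classes, 0 to 2 higher and 0 to 1 lower for the mimic in TE-like cells, and 0 to 1 higher in ICM-like cells. Mimic run C was not left out where ICM-like mimic cells were compared, since fewer than 5 cells would remain. TMM and median of ratios moved the median of all genes between stages from 0.20 to 0.12 and 0.08 in the control and from 0.24 to 0.11 and 0.07 under the mimic. The causes were not tested. Depth limits genes at low levels, such as Marveld2, which had no count in 76 cells. Thinning to 500000 counts per cell left a count of Marveld2 in 54 cells in place of 56 and of Ocln in 95 in place of 100.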

Other observations

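Among the less abundant junction genes, 3 that were picked after their values were seen had larger differences with the mimic than most of the genes above. Grhl3, a grainyhead-like factor of surface epithelia, had 1 count (0.04 CPM) in TE-like control cells and 29.6 CPM in TE-like mimic cells, and at 0 in both 8-cell groups. Jam3, of the same family as F11r and Jam2, was 15.4 CPM in ICM-like cells of the control and 56.9 CPM in those with the mimic, and 1.73 and 10.5 CPM in TE-like cells. Mpdz, a scaffold related to Patj, was 15.7 CPM in ICM-like control cells and had no count in ICM-like mimic cells, which allows up to 0.27 CPM. These are pooled values of 1 sample per group, with the same confounding of sex and treatment.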
